A study of Mus musculus with 3 samples.

Results

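Barrier endothelium of the naive brain was represented by 91 cells out of 16328 deposited cells with 13757 different barcodes. They were taken from the brain table, which holds 5208 cells, in 3 steps. Cells whose barcode also stood in either blood table were left out, which removed 1726 barcodes and left 3482 cells. Of these, 313 belonged to the authors' cluster 6. In each of them the counts of 5 barrier genes (Cldn5, Slco1a4, Itm2a, Spock2 and Abcb1a), 5 fenestrated-vessel genes (Plvap, Igfbp3, Esm1, Emcn and Plpp3) and 5 fibroblast genes (Dcn, Col1a1, Col1a2, Apod and Efemp1) were summed. A cell was a member where the barrier sum was above 0 and the largest of the 3. The fenestrated sum was largest in 147 cells and the fibroblast sum in 67, while 7 cells had none of these genes and 1 was tied.

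The brain cells came from naive female mice on a C57Bl/6 background, aged 2 to 3 months, that were either CCR2+/- or CCR2-/-, so that both groups carried at least 1 mutant CCR2 allele. CCR2 is the chemokine receptor that draws monocytes out of bone marrow. Mice were perfused, 1 hemisphere was digested, and a Percoll gradient enriched immune cells, so endothelium is present as carry-over and its yield says nothing about vessel density. Each of 8 samples of brain or blood was marked with its own barcoded antibody (hashtag) before all were loaded as 1 pool. Brain supplied 2 hashed samples per genotype, and the sources do not state whether 1 hashtag stands for 1 animal. The p-values below take in no spread beyond that between these samples, which may be technical. In the gene fits that spread is moderated by the spread of other genes, as are the standard errors.

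The hashtags and the tags of the antibodies behind the authors' gates are shown because they are what assigns each member to a genotype and to a gate. The barcodes, 5′ to 3′, were:
M-HTO-1 (CCR2+/- sample 1): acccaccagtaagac
M-HTO-2 (CCR2+/- sample 2): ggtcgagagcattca
M-HTO-3 (CCR2-/- sample 1): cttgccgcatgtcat
M-HTO-4 (CCR2-/- sample 2): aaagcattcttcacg
CD45 antibody tag: tggctatggagcaga
CD11b antibody tag: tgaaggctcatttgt

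Capillaries, arterioles and venules of most of the brain are lined by a closed endothelium. Claudin-5 and occludin seal the junctions, efflux pumps return lipophilic compounds to the blood, and solute carriers bring in glucose, amino acids, lactate and thyroid hormone. Wnt signalling from surrounding cells keeps this programme on. Fenestrated endothelium, as in the choroid plexus, lacks the seal and makes Plvap, the protein of fenestral diaphragms. Along the vascular tree the same cells differ as arterial, capillary and venous endothelium, and the venules are where leukocytes attach.

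The sums that chose the members are given as a description, since the rule fixed which of them was largest. The barrier sum of a member was 75 corrected counts at the median (3 to 272), against 3 (0 to 13) for the fenestrated sum and 1 (0 to 17) for the fibroblast sum. The cell nearest to the limit on the inside had 13 barrier against 6 other counts, a ratio of 2.17, and the nearest on the outside had 9 against 10. The lowest barrier sum, 3 counts, stood beside a next sum of 0 in a cell of 799 raw UMIs (unique molecular identifiers, each a captured transcript). Raw depth ran from 511 to 42665 UMIs per member with a median of 9556. By sample the median was 10806 and 11687 UMIs in the CCR2+/- samples and 18393 and 6904 in the CCR2-/- samples. The 2 CCR2-/- samples thus lay on either side of the CCR2+/- samples in depth.

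Levels below are corrected counts per 10000, since the authors corrected each count for the depth of its cell. They come from transcript ends and are not set against each other between genes. Claudin-5 (Cldn5) stood at 48.9 and 65.4 in the CCR2+/- samples and at 57.5 and 59.6 in the CCR2-/- samples. In the fenestrated-sum cells of the same samples it was 0, 0.0798, 0.240 and 0.198. The anion transporter Slco1a4 stood at 14.8, 21.4, 15.8 and 13.9 in the same order of samples. The efflux pump P-glycoprotein (Abcb1a) stood at 11.8, 13.4, 11.95 and 9.09. Itm2a, a membrane protein, stood at 26.8, 36.6, 33.4 and 25.1, and the proteoglycan Spock2 at 7.39, 9.02, 14.2 and 9.76. These 5 levels are what the rule selected on and are given as a description. Of the fenestrated genes Esm1 had no count in any member, Plvap had 3 counts in 1 cell, and Igfbp3 (0.889), Plpp3 (0.812) and Emcn (2.84) were low beside 24.3, 34.9 and 25.9 in fenestrated-sum cells. Among the fibroblast genes Col1a1 and Efemp1 had no count. Apod, a lipid carrier, was the exception, with 3.39 in members, 0.0767 in fenestrated-sum cells and 16.7 in fibroblast-sum cells.

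**Figure D1:**
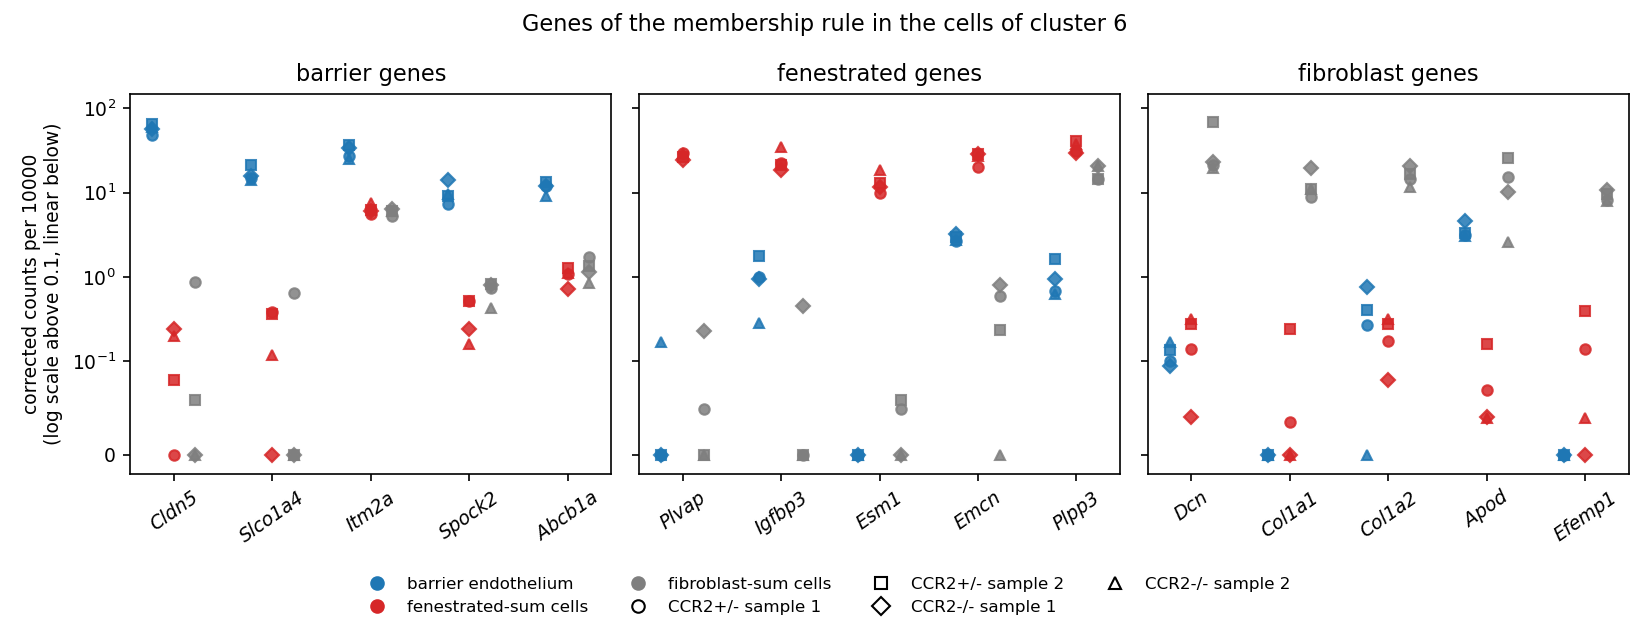
Levels of the 15 genes of the membership rule (vertical axis, corrected counts per 10000, on a log scale above 0.1 and linear below) in barrier endothelium, fenestrated-sum cells and fibroblast-sum cells. Each point is 1 of the 4 hashed samples; Cldn5 lies between 48.9 and 65.4 in barrier endothelium and at or under 0.240 in fenestrated-sum cells, and these values are what the rule selected on.

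Markers other than the rule's set the cells among endothelium as well. The 8 pan-endothelial markers summed to 111 in members, 122 in fenestrated-sum cells and 0.462 in brain cells outside the cluster. Microglia markers, which sum to 203 in brain cells outside the cluster, reached 6.97 in members, or 4.08, 7.79, 10.4 and 9.42 by sample. In the 147 fenestrated-sum cells they reached 8.68. Of 7 border macrophage markers 6 had no count, Mrc1 and Cd163 among them. Aqp4 and Gfap of astrocytes and Cd3e of T cells had none either, but other markers of non-vascular cells did. Of 8 astrocyte markers 5 had counts, with a sum of 3.48 in members against 1.98 in brain cells outside the cluster. Neuron markers summed to 3.42 against 0.265. Counts were also found for 5 of 7 neutrophil markers, which summed to 7.31 against 68.7, for 6 of 6 B cell markers and for 2 of 8 T and NK cell markers. All 91 members were CD45-low in the authors' antibody gate, and 69 were also CD11b-negative (26 of 40, 8 of 10, 12 of 15 and 23 of 26 by sample). The 22 members in the CD11b-positive gate had deeper libraries, with a median of 14304 against 7873 UMIs and 7874 against 3011 antibody tags. Their microglia markers summed to 5.48 against 7.47, and Itgam, the gene of CD11b, stood at 0.185 against 0.388. By these pooled levels microglial RNA was not higher in the CD11b-positive members, and why they fell in that gate was not tested. Ccr2 itself had 5 counts in 2 members, a level of 0.0766 against 0.372 in brain cells outside the cluster, and the reporter RFP had 1 count.

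RNA of vessel-wall neighbours was found in many members. Pericyte markers summed to 33.5, 29.0, 29.3 and 11.6 by sample, and smooth muscle markers to 33.1, 12.4, 13.8 and 4.74. All 10 pericyte markers and 6 of 7 smooth muscle markers had counts, Cnn1 being at 0. They were concentrated: 29 of 91 members held 10 or more such counts (16 of 40, 3 of 10, 6 of 15 and 4 of 26), and 33 members held none. One member of CCR2-/- sample 2 carried 1127 of the 1372 Ttr counts, a choroid plexus transcript. Another, of CCR2+/- sample 1, carried 1949 of 1970 Hbb-bs counts and 714 of 722 Hba-a1 counts of haemoglobin. Through these single cells red cell markers summed to 111 in CCR2+/- sample 1 and choroid plexus markers to 69.9 in CCR2-/- sample 2, more than the mural markers of those samples.

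The yield of members did not separate the genotypes. The CCR2+/- samples held 40 of 946 brain cells (4.23%, exact Clopper-Pearson 95% interval 3.04% to 5.71%) and 10 of 759 (1.32%, 0.634% to 2.41%). The CCR2-/- samples held 15 of 710 (2.11%, 1.19% to 3.46%) and 26 of 1067 (2.44%, 1.60% to 3.55%). These intervals cover counting error only. The mean was 2.77% ± 2.06 (SD, n = 2) in CCR2+/- and 2.27% ± 0.229 (SD, n = 2) in CCR2-/- samples, and a two-sided exact permutation test gave p = 1. With 2 against 2 samples this test cannot reach 0.05, its smallest p being 1 in 3. The CCR2+/- samples lay on either side of the CCR2-/- samples. The levels by sample are sums over members and do not by themselves separate fewer cells of a subtype from less RNA per cell.

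The barrier programme was described against the fenestrated-sum cells of the same cluster, without a test because the authors' clustering and the rule used these genes. Over all 8384 genes with at least 20 corrected counts in both kinds of cell together, 12.4% were higher in members in each of the 4 samples and 18.6% were lower in each. Among junction genes 7 of 12 were higher in every sample and 2 lower. Besides Cldn5 of the rule, those higher included occludin (Ocln, 2.15 against 0.0863), Lsr, the angulin of tricellular junctions (3.54 against 0.0671), and the scaffold Tjp1 (5.35 against 1.55). The adherens genes Cdh5 (5.50 against 8.52) and Pecam1 (6.39 against 10.4) were lower in members.

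Solute carriers of the barrier were higher in members in all 4 samples for 17 of 24 genes, Slco1a4 of the rule among them, and lower for 1. The glucose transporter Slc2a1 stood at 28.7 against 0.508. The thyroid hormone transporter Slco1c1 stood at 5.79 against 0.0767. The large neutral amino acid transporter Slc7a5 stood at 1.58 against 0.0383, and the lactate transporter Slc16a1 at 2.08 against 0.345. Mfsd2a, the lipid transporter that restrains transcytosis, was sparse at 0.537 with counts in 16 members, against 0.0767. Of 5 efflux pump genes 3 were higher in each sample, Abcb1a of the rule among them, and 1, Abcc5, was lower, with Abcg2 at 8.78 against 4.04 and Abcc4 at 1.78 against 0.460. Basigin (Bsg), the chaperone of lactate transporters, had counts in all 91 members and stood at 83.0 against 4.97. The transferrin receptor Tfrc stood at 0.874 against 0.0575.

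Wnt genes separated the same way. Of 23 genes of the Wnt and beta-catenin programme 16 were higher in members in all 4 samples and 5 lower. Among those higher were the transcription factors Lef1 (3.19 against 0.0863) and Foxq1 (3.76 against 0.0767), and the feedback target Axin2 (0.782 against 0.0383). Tnfrsf19, a Wnt-responsive receptor, stood at 1.66 against 0.0288. The Norrin receptor Fzd4 (1.67 against 3.71) and its partner Tspan12 (0.720 against 2.72) were lower in members. General endothelial receptors ran the other way, with 13 of 22 lower in each sample, Emcn of the rule among them, and 3 higher. The VEGF receptor Kdr stood at 4.74 against 27.0 and its co-receptor Nrp1 at 1.53 against 25.9, and Flt1, another VEGF receptor, stood at 26.9 against 46.4. The phosphatase Ptprb stood at 17.8 against 17.3. Basement membrane genes were lower in each sample for 8 of 16, with Hspg2, perlecan, at 0.521 against 7.72 and Col4a1 at 3.25 against 10.4. Fibronectin (Fn1) was the 1 gene of that list higher in each sample, at 6.64 against 0.441.

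**Figure D2:**
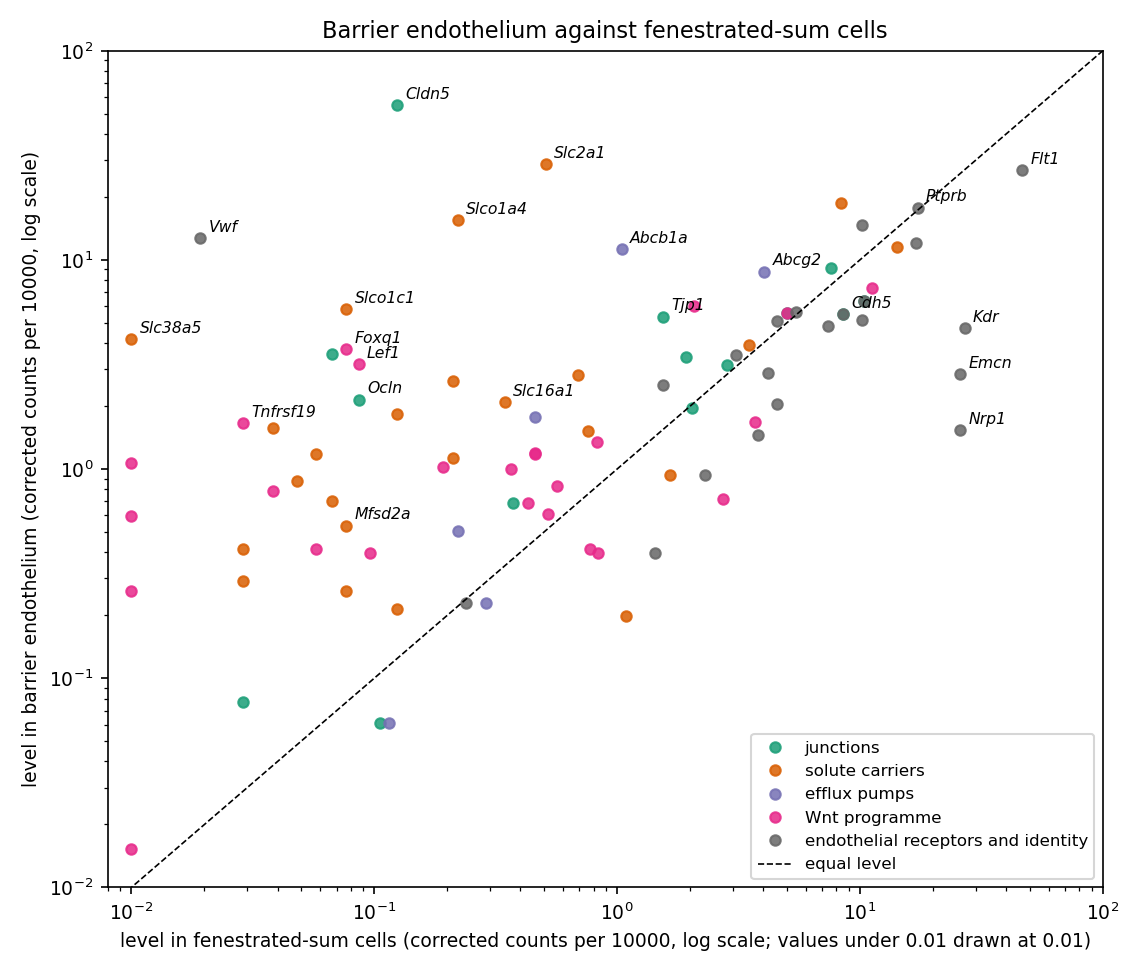
Each point is 1 gene of 5 lists, with its level in fenestrated-sum cells on the horizontal axis and in barrier endothelium on the vertical axis (corrected counts per 10000, both axes log, values under 0.01 drawn at 0.01). Most solute carrier and Wnt points lie above the line of equal levels, with Slc2a1 at 28.7 against 0.508, and Kdr, Emcn and Nrp1 lie far below it. Cldn5, Slco1a4, Abcb1a and Emcn are genes the rule selected on.

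The genes of largest ratio over fenestrated-sum cells were led by von Willebrand factor (Vwf), which stood at 12.7 against 0.0192 (829 counts against 2, a 663-fold ratio with a 95% counting interval of 183 to 5483). That interval covers counting error only, not the spread between samples, and the gene was chosen for its ratio. Cldn5 followed at 442-fold. Ptgs2, the inducible cyclooxygenase, had 231 counts against 1. The gastrokine gene Gkn3 had 643 counts against 0, at least 343-fold higher with a floor of 3 counts over the group, and the glutamine transporter Slc38a5 had 273 against 0, at least 146-fold higher. Among the 15 were also the growth factor Ptn (177-fold), Mal, a membrane-raft proteolipid (87.1-fold), Srarp and the pentaspan protein Prom1 (both 83.2-fold), and, with 1 to 3 counts in fenestrated-sum cells, Bmx, Nkd1, Pllp and Tmem252. Hba-a2 and Hbb-bt completed them through the single haemoglobin-bearing cell. Set against all other brain cells, Gkn3 (2188-fold), Slc38a5 (1858-fold) and Cldn5 (1273-fold) had the largest ratios, and Foxq1 (417-fold), Tbx1 (221-fold) and Fam181b (151-fold) were among the 15.

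Members split into an arterial and a venous side. The split was made after values had been seen, on the marker genes Gkn3, known in mouse from arterial endothelium, and Slc38a5, known from venules and the venous end of capillaries, and is given with no test. Of 91 members 34 had a Gkn3 count without Slc38a5, 42 had Slc38a5 without Gkn3, 1 had both and 14 had neither. The Gkn3 side held 15, 2, 8 and 9 members by sample and the Slc38a5 side 20, 6, 6 and 10. Median depth was 8290 UMIs on the Gkn3 side, 12873 on the Slc38a5 side and 2190 in members with neither. Sums of other arterial and venous genes followed the split cell by cell. The arterial sum was led by Mgp, at 74.7 on the Gkn3 side with Stmn2 next at 6.43, and was not repeated without Mgp. In all 34 Gkn3-side cells the sum of the arterial list without Gkn3 and Cxcl12 exceeded the sum of the venous list without Slc38a5. In 41 of 42 Slc38a5-side cells the venous sum was the larger.

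**Figure D3:**
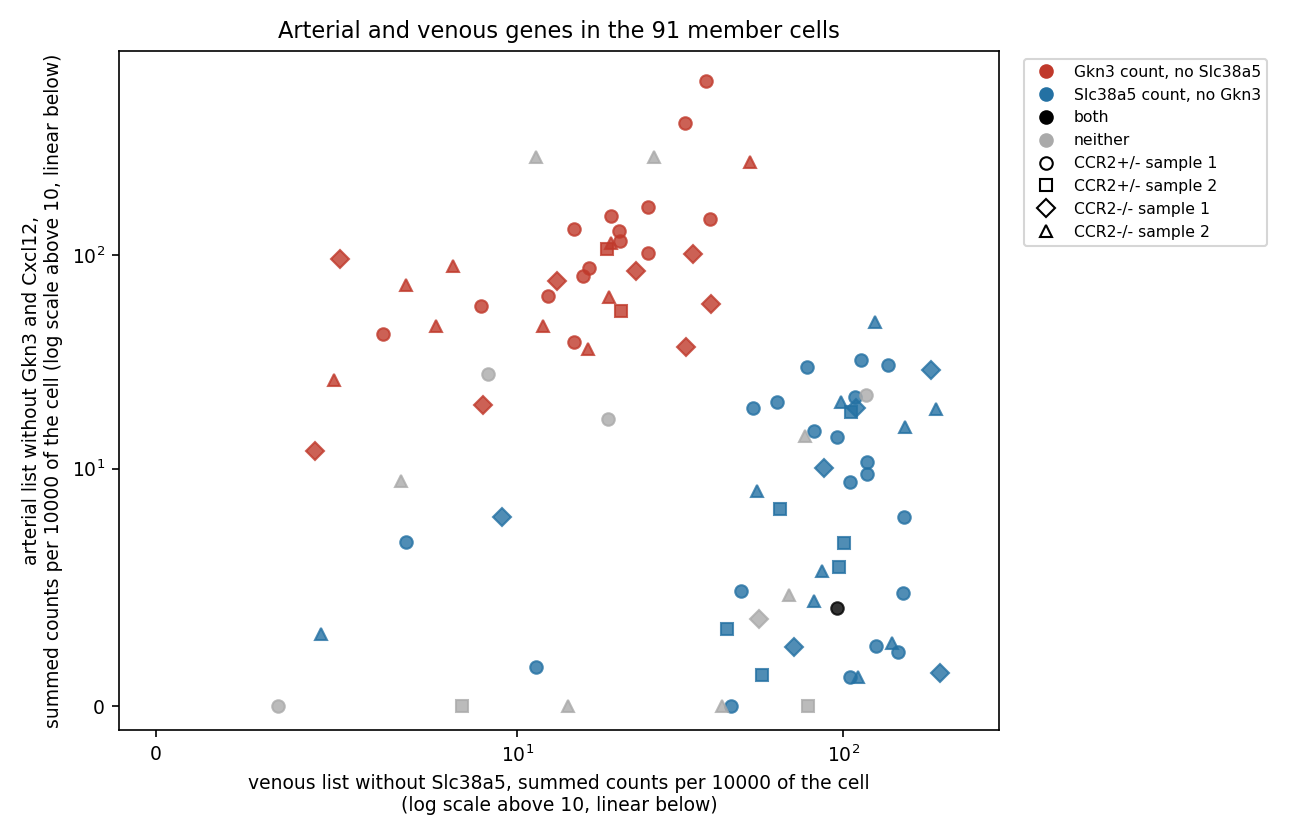
Each point is 1 of the 91 members, with the summed level of venous genes without Slc38a5 on the horizontal axis and of arterial genes without Gkn3 and Cxcl12 on the vertical axis (corrected counts per 10000 of that cell, log above 10 and linear below). Red cells had a Gkn3 count and blue cells a Slc38a5 count; all 34 red cells have the larger arterial sum and 41 of 42 blue cells the larger venous sum.

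Of 15 further arterial genes with at least 20 counts, 15 were higher on the Gkn3 side, 13 of them in all 4 samples. Matrix Gla protein (Mgp), an inhibitor of calcification, stood at 74.7 against 7.23. Bmx stood at 3.32 against 0.188, alkaline phosphatase (Alpl) at 3.90 against 0.0313, and the Notch target Hey1 at 1.66 against 0. Of 11 further venous genes 11 were higher on the Slc38a5 side in all 4 samples. The share of all genes higher on either side in all 4 samples is not given here, so these counts lack a background. Vwf stood at 21.8 against 3.73, the venous transcription factor Nr2f2 at 5.38 against 1.49, and the adhesion molecule Vcam1 at 12.8 against 4.68. The interleukin-1 receptor Il1r1 stood at 4.66 against 0.207. Ackr1, the chemokine scavenger of venules, stood at 3.32 against 0. Of 9 capillary genes 4 were higher on the Gkn3 side and 5 on the Slc38a5 side, among the latter Slc16a1 (3.63 against 0.415) and Tfrc (1.44 against 0.415). The 4 were Mfsd2a, Spock2 of the rule, Cxcl12, which is also in the arterial list, and Rgs5, which is also a pericyte marker. Rgs5 stood at 40.0 on the Gkn3 side against 3.94.

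Genes of the barrier rule differed by side as well. Slco1a4 (22.1 against 8.50), Itm2a (42.5 against 15.4) and Abcb1a (14.3 against 9.41) were higher on the Slc38a5 side in all 4 samples, Spock2 (8.45 against 12.02) was lower there in all 4, and Cldn5 was 59.2 against 59.3. Slco1c1 stood at 10.9 on the Gkn3 side against 2.94, Ly6c1 at 72.9 against 30.0, endothelin (Edn1) at 6.92 against 1.66, and Ptgs2 at 1.04 against 6.13. Apod, the fibroblast gene found in members, had 186 counts on the Slc38a5 side and 1 on the Gkn3 side, and Igfbp3, a fenestrated gene of the rule, had 55 counts on the Gkn3 side and 0 on the other. Mural RNA went with the Gkn3 side too. Smooth muscle actin (Acta2) stood at 15.8 against 0.250, and 18 of 34 Gkn3-side cells held 10 or more mural counts against 7 of 42. Its part in the differences between the sides was not tested.

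The study's comparison in these cells was between CCR2+/- and CCR2-/- brains. Of 17678 genes 12224 had a count in a member, and 5000 with at least 20 corrected counts entered a limma fit on log2 values per hashed sample with a pseudocount of 1. Differences are given as log2 of CCR2-/- minus CCR2+/-. At a Benjamini-Hochberg adjusted p of 0.05 over all 5000 genes, 9 were higher in CCR2-/- (0.18%) and 1 was lower (0.02%), together 10 genes or 0.2%. The balance of directions depended on the setting: it was 23 higher and 24 lower with samples weighted by cells, 22 and 17 with no filter on low counts, 28 and 25 without CCR2+/- sample 2, and 9 and 22 without CCR2-/- sample 1. Without adjustment 401 genes had a p under 0.05. The chemokine Cxcl12, the venular chemokine scavenger Ackr1, the MHC class I genes H2-K1 and H2-Q6, the interferon-induced tetherin Bst2, the small heat shock protein Hspb1, the nuclear RNA Malat1, AY036118 and Ttr rose. The lactate transporter Slc16a1 fell.

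Cxcl12, which holds leukocytes at the vessel through the receptor CXCR4, stood at 3.57 and 3.96 in CCR2+/- samples and at 11.003 and 14.6 in CCR2-/- samples. The groups did not overlap, and the difference was 1.74 ± 0.239 (log2, SE, adjusted p = 0.00133). Both CCR2-/- values lay above both CCR2+/- values on each side of the vascular tree, at 3.90, 10.5, 12.1 and 21.99 on the Gkn3 side and 3.13, 2.36, 10.99 and 6.42 on the Slc38a5 side. The value of 10.5 comes from 2 cells. Ackr1 stood at 0.438 and 0.137 in CCR2+/- and at 2.28 and 3.95 in CCR2-/- samples, again without overlap (3.28 ± 0.459, adjusted p = 0.00133). With cells thinned to 2000 corrected counts neither gene passed, at 1.30 for Cxcl12 and 2.67 for Ackr1. The 108 Ackr1 counts lay in 16 members, 5 and 1 of CCR2+/- and 3 and 7 of CCR2-/- samples. The highest member, of CCR2-/- sample 2, held 22 of them and the next held 21. Within the Slc38a5 side Ackr1 stood at 0.865, 0.215, 5.17 and 8.91. Slc38a5-side cells made up 20 of 40, 6 of 10, 6 of 15 and 10 of 26 members by sample. Members with an Ackr1 count were 5 of 40, 1 of 10, 3 of 15 and 7 of 26. The part of cell composition in the Ackr1 difference was not tested.

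H2-K1, a classical MHC class I heavy chain that displays peptides to CD8 T cells, stood at 10.3 and 10.9 in CCR2+/- and at 22.3 and 19.7 in CCR2-/- samples (0.98 ± 0.199, adjusted p = 0.0419). The non-classical H2-Q6 stood at 0.472 and 0.546 against 2.47 and 1.69 (1.89 ± 0.386, adjusted p = 0.0419). Reads of the near-identical H2-Q genes may have been split between them. Bst2 stood at 1.08 and 2.05 against 5.31 and 4.01 (1.59 ± 0.326, adjusted p = 0.0419). The genotypes did not overlap in any of the 3 genes. When CCR2-/- sample 1 was left out none of them passed, at 0.89 for H2-K1, 1.62 for H2-Q6 and 1.39 for Bst2. H2-K1 also missed the threshold when CCR2-/- sample 2 was left out, at 1.07. None of the 3 passed with a minimum of 10 counts per gene. H2-K1 and H2-Q6 did not pass in CD11b-negative members, H2-K1 and Bst2 in members with at least 2000 raw UMIs, nor H2-Q6 and Bst2 in members with a hashtag share of at least 0.5. Microglia markers moved with these genes, with sums of 4.08 and 7.79 against 10.4 and 9.42, and their part in the result was not tested.

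Hspb1 stood at 8.87 and 8.33 against 19.7 and 19.1 (1.17 ± 0.202, adjusted p = 0.013), and Malat1 at 137 and 121 against 243 and 224 (0.86 ± 0.137, adjusted p = 0.00572). With shared barcodes kept neither passed, at 0.77 for Hspb1 and 0.46 for Malat1. Hspb1 also missed the threshold with cells thinned, at 1.04. AY036118 stood at 4.86 and 4.51 against 9.11 and 18.5 (1.46 ± 0.274, adjusted p = 0.0252). Its difference was 0.95 without CCR2-/- sample 2. AY036118 did not pass with cells thinned to 2000 corrected counts, nor in members with at least 2000 raw UMIs. Ttr, transthyretin, stood at 2.60 and 3.14 against 6.73 and 67.8 (2.88 ± 0.565, adjusted p = 0.0365). The 1 cell named above held 82.1% of its counts, and without that cell and the haemoglobin-bearing one Ttr missed the threshold at 0.89. Slc16a1 stood at 2.83 and 4.10 against 1.14 and 0.564 (-2.002 ± 0.367, adjusted p = 0.0222). Within the Slc38a5 side it stood at 5.26 and 4.94 against 1.72 and 0.786. Its difference was -1.53 without CCR2-/- sample 2. Slc16a1 did not pass with cells thinned to 2000 corrected counts, nor in members with at least 2000 raw UMIs.

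**Figure D4:**
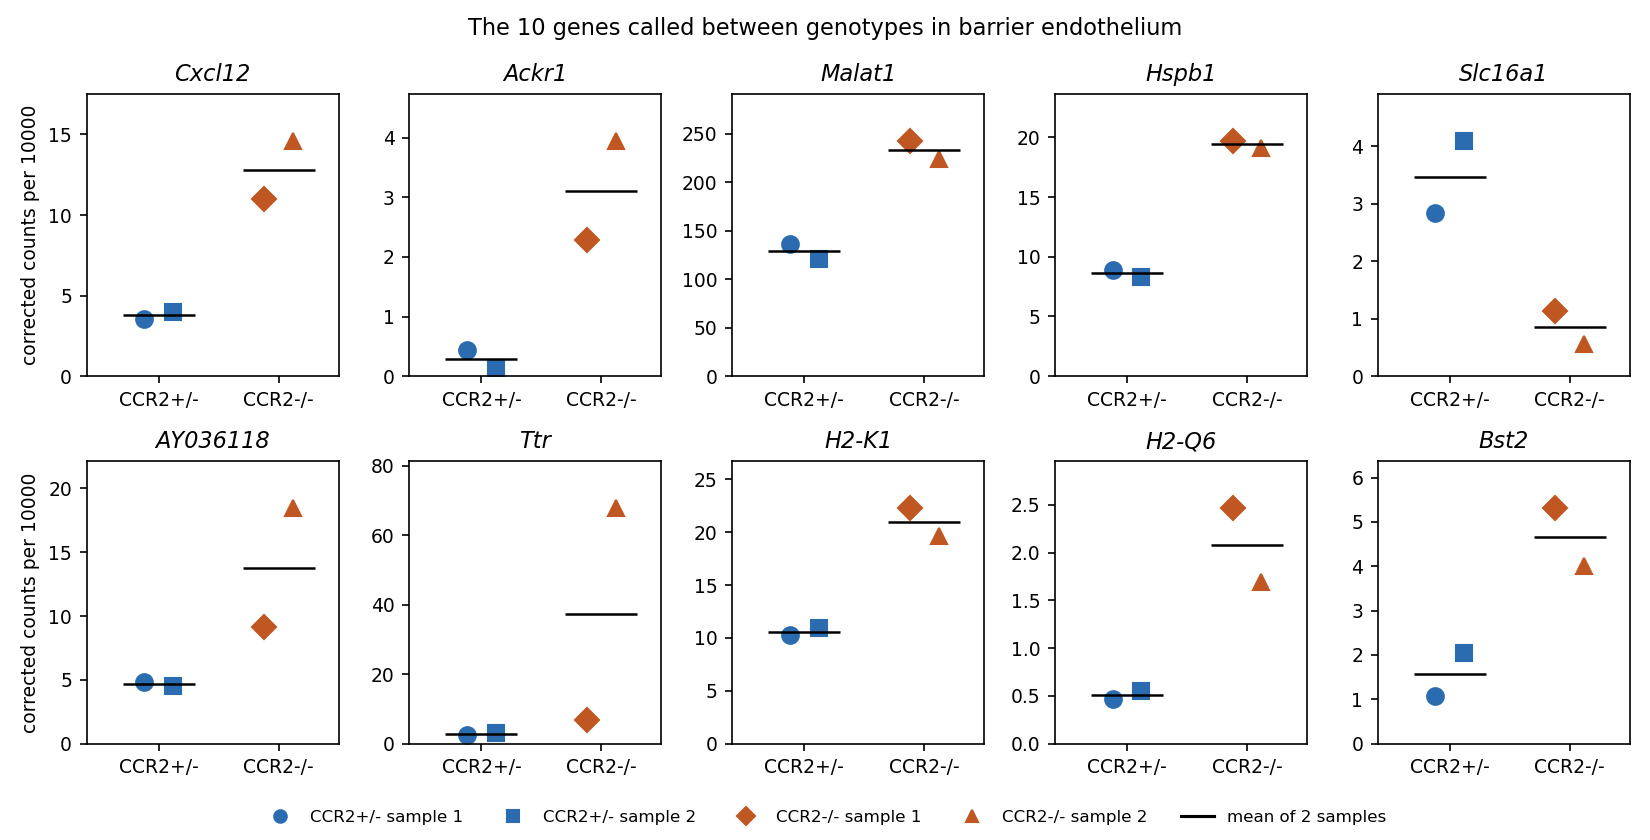
Level of each of the 10 called genes (vertical axis, corrected counts per 10000) in the 2 CCR2+/- and 2 CCR2-/- hashed samples, with the mean of the 2 samples as a bar. Slc16a1 is lower in both CCR2-/- samples, the other 9 genes are higher in both, and Ttr is set by 1 sample, at 67.8.

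Since a single gene passed downwards, the 5 genes of lowest unadjusted p among those lower in both CCR2-/- samples are given as values that did not pass. Smooth muscle actin Acta2 differed by -1.71 (adjusted p = 0.102), and the summed mural markers stood at 66.6 and 41.4 against 43.2 and 16.3. Its difference was -0.05 in CD11b-negative members and ran from -2.34 to -1.07 when 1 sample was left out, and it passed when CCR2+/- sample 2 or CCR2-/- sample 1 was the one left out. It also passed with samples weighted by cells, with no filter on low counts and without the cells highest in Ttr and Hbb-bs. The glucocorticoid-induced leucine zipper gene Tsc22d3 differed by -1.18 (adjusted p = 0.141), protocadherin Pcdh19 by -2.19 (adjusted p = 0.141), the stress gene Ddit4 by -1.84 (adjusted p = 0.141) and tissue plasminogen activator Plat by -1.20 (adjusted p = 0.143). These 5 were picked from the genes lower without overlap of the genotypes, which were 21.2% of all 5000. Their lack of overlap follows from that choice.

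Antigen presentation and interferon genes lay above the background as lists. Over all 5000 genes the median difference was -0.05, 46.1% were higher and 53.9% lower, and 16% were higher without overlap of the genotypes. Of 15 tested MHC class I genes 15 were higher, 12 of them without overlap, with a median of 0.82; 2 passed. Beta-2 microglobulin (B2m), the light chain of class I, stood at 14.0 and 13.9 against 29.7 and 22.5 (0.89, adjusted p = 0.0961). Of 13 interferon gamma GTPases and related genes 13 were higher, 11 without overlap, with a median of 1.16, and 0 passed. Gbp2, a guanylate-binding protein, stood at 0.472 and 0.546 against 1.80 and 1.69 (1.67, adjusted p = 0.114). Of 27 interferon response genes 24 were higher and 3 lower, 19 higher without overlap, with a median of 0.85, and Bst2 was the 1 that passed. The ubiquitin-like Isg15 stood at 1.45 and 1.23 against 3.98 and 2.82 (1.29, adjusted p = 0.142). The medians of the 3 lists stayed above 0 in all 19 alternatives. Lists of this kind had been seen to be higher in endothelial cells of these samples before the members were chosen, so the counts are not independent evidence of their direction.

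Genes by which endothelium recruits leukocytes differed less evenly. Of 11 tested 9 were higher and 2 lower, 8 higher without overlap, with a median of 0.49; Cxcl12 and Ackr1 passed. Vcam1 stood at 7.76 and 6.01 against 10.6 and 8.69, and Icam1 at 1.012 and 1.09 against 2.09 and 1.92. The selectins Sele and Selp had 9 and 7 counts in 3 and 4 members, all of CCR2-/- samples, too few to be tested. Cxcl10 had 17 counts in 3 members, also of CCR2-/- samples. Of 11 heat shock genes 9 were higher and 2 lower, 7 higher without overlap, with a median of 0.62, and Hspb1 passed. Hspa8 (0.88, adjusted p = 0.147) and the chaperone of the endoplasmic reticulum Hspa5 (1.17, adjusted p = 0.142) did not pass. Of 11 glucocorticoid-induced genes 10 were lower and 1, Lcn2, was higher, with a median of -1.18 and 0 passing. Of the 11, 6 were lower without overlap, beside 21.2% of all genes. A single member of CCR2-/- sample 1 held 36 of the 86 Lcn2 counts, and the next member held 7.

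Among the genes of the barrier programme Slc16a1 was the 1 that passed. Of 12 junction genes 8 were higher and 4 lower with a median of 0.05, 3 each way without overlap, and 0 passed. Of 20 solute carriers 9 were higher and 11 lower with a median of -0.04, 3 higher and 4 lower without overlap, and Slc16a1 passed. Of 23 Wnt genes 8 were higher and 15 lower with a median of -0.22, and 0 passed; 5 were higher and 9 lower without overlap, beside 16% and 21.2% of all genes. Of 4 efflux pumps 1 was higher and 3 lower with a median of -0.23, 1 of them lower without overlap, and 0 passed. The glucose transporter Slc2a1 stood at 35.2 and 29.6 against 24.3 and 20.03 (-0.55, adjusted p = 0.433), and Slco1c1 at 3.64 and 5.19 against 8.54 and 8.01 (0.92, adjusted p = 0.199). The genotypes did not overlap in either gene, and neither passed the test. The arterial list had a median of 0.33, which ran from -0.03 to 0.94 when 1 sample was left out and from 0.12 to 1.86 in other settings. The venous list had a median of 0.16, which ran from -0.03 to 0.42 and from -0.15 to 0.50. The junction and solute carrier medians kept their sign in 15 and 13 of 19 alternatives, and those of the Wnt and efflux pump lists in all 19.

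**Figure D5:**
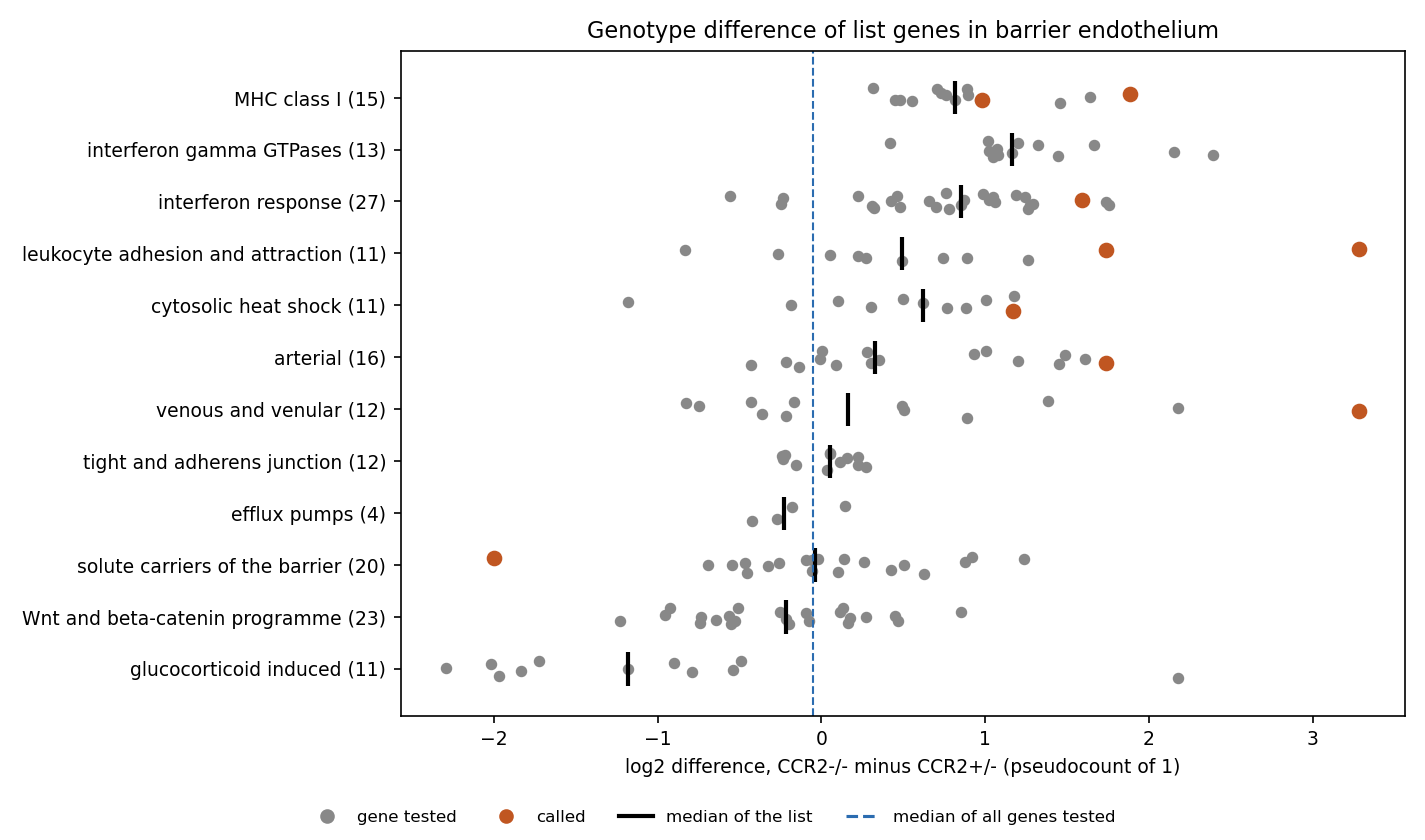
Log2 difference between genotypes (horizontal axis, CCR2-/- minus CCR2+/-) of each tested gene of 12 lists, with the number tested in brackets, the list's median as a bar and called genes in orange. The medians of MHC class I (0.82), interferon gamma GTPases (1.16) and interferon response genes (0.85) lie right of the median of all genes (-0.05, dashed), and that of glucocorticoid-induced genes (-1.18) lies left of it.

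The promoters of Bst2 and Hspb1 are printed because they carry, within the 250 bases before the start, letters known from interferon-stimulated and heat shock promoters. Both motifs were chosen after the called genes had been seen. The core of the interferon-stimulated response element (GAAA, any 2 bases, then GAAA) and of the heat shock element (GAANNTTC) were searched on both strands. Capitals mark the first motif in Bst2 and the second in Hspb1. The sequences are RefSeq's on GRCm38.p6, 5′ to 3′ on the gene's strand, for Bst2 chr8:71537473-71537722 (minus strand) and for Hspb1 chr5:135887669-135887918 (plus strand).
Bst2: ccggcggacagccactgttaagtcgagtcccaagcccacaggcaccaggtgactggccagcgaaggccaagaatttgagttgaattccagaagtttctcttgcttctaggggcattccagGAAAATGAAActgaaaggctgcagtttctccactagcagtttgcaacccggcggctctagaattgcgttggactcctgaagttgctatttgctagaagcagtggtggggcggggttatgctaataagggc
Hspb1: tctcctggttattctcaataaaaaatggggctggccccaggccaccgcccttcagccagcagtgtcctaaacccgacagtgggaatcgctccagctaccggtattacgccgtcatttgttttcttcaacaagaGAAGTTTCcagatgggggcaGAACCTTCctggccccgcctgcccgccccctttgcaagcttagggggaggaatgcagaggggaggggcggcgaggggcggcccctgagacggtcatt

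The motif begins 130 bases before the start in Bst2, and the 2 heat shock motifs of Hspb1 begin 117 and 97 bases before it. Among 27025 genes with a promoter, 3.46% held the interferon core, as did 1 of 9 called genes with a promoter, 3 of 13 MHC class I genes, 9 of 23 interferon response genes and 9 of 11 interferon gamma GTPases. GAANNTTC was held by 7.73% of all promoters, by 6 of 10 cytosolic heat shock genes, and by 3 of the 9 called genes (Ackr1, Hspb1 and Bst2); in Bst2 it does not overlap the first motif. These are matches of letters, not shown sites of binding.

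Whether the genotype difference in members was other than that in fenestrated-sum cells was tested directly, on the per-sample difference between the 2 kinds of cell. Of 8384 genes limma called 0 (0%), and 393 had a p under 0.05 before adjustment. The fit within fenestrated-sum cells called 19 of 6898 genes as higher (0.275%) and 2 as lower (0.029%), together 0.304%. Both kinds of cell came from the same hashed samples, so their values are set side by side only. Cxcl12 stood at 6.78 and 10.3 in CCR2+/- and 10.0 and 9.92 in CCR2-/- fenestrated-sum cells (0.26, adjusted p = 0.977), and the difference between the kinds was 1.48 (adjusted p = 0.974). Hspb1 differed by 0.46 there (adjusted p = 0.90) and Malat1 by -0.33 (adjusted p = 0.931). H2-K1 differed by 1.06 (adjusted p = 0.011) and H2-Q6 by 2.12 (adjusted p = 0.0013) in fenestrated-sum cells. The median of the MHC class I list was 1.0098 there against 0.82 in members, and that of the interferon gamma GTPases 1.77 against 1.16. No gene was thus shown to respond in members alone.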

How the data were processed

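The authors deposited, per cell, the natural log (ln) of 1 plus a count corrected for the depth of the cell by SCTransform, per the file headers. The submitters' processing notes name Cell Ranger 3.1 and the build mm10. The filters on cells are not given in the sources used here. Exponentiating returned whole corrected counts to within 2.18e-11, so no raw count was modelled per gene. Raw UMI, antibody and hashtag counts per cell were used as deposited, per the file headers. Barcodes in more than 1 of the 3 tables were left out; no doublet caller was run beyond this.

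Corrected counts of members were summed per hashed sample, scaled to the mean total, log2-transformed with a pseudocount of 1, and fitted by genotype with limma 3.58.1 (mean-variance trend) in R 4.3.3, for genes with at least 20 counts and adjusted over all genes tested. The test of a difference between cell kinds used the per-sample difference of these values. Scripts were tested on simulated data. Shares were compared by exact permutation with scipy 1.17.1. Named genes were the called ones, the 5 lowest p where fewer than 5 passed in a direction, the 15 of largest ratio with at least 50 counts, the rule's genes and members of the fixed lists; predicted, ribosomal and antigen receptor genes were left out of rankings. The members and lists were chosen with earlier results of these data known. Ratios to a group at 0 use a floor of 3 counts. Precision is limited by 10 to 40 cells and 73211 to 296537 corrected counts per sample. Some genes of the lists are counted but not reported here by name.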

Additional observations from a re-analysis of the deposited data

How the results depend on the processing

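The count of called genes moved with the settings. It was 6 with at least 10 counts per gene, 39 with no filter, 47 with samples weighted by cells, 26 with shared barcodes kept and 6 with cells thinned to 2000 corrected counts, which left 1633 genes. It was 30 in members with fewer than 10 mural counts, a setting added after the data had been seen. Leaving out 1 sample at a time gave between 26 and 70 calls: 70 and 53 without CCR2+/- samples 1 and 2, 31 and 26 without CCR2-/- samples 1 and 2; the lone sample is then assumed to vary like the other group. Of the 10 called genes 10 kept the call when a CCR2+/- sample was left out, 7 when CCR2-/- sample 1 was and 6 when CCR2-/- sample 2 was. Thinning kept 3 of the 9 it could test; Cxcl12 then stood at 1.30 and missed the threshold. Malat1 missed it in members with few mural counts, at 0.50. Ttr turned to -0.17 in members with at least 2000 raw UMIs. The difference in share was -0.50 points of brain cells, 6.604 points of cluster 6 and 0.29 points of barrier plus fenestrated cells. The first of these ran between -1.95 and 0.96 without 1 sample. The test between cell kinds gave 0 calls in its 9 alternatives, with 237 to 579 genes at an unadjusted p under 0.05. The causes were not tested. No paired analysis was possible because the labels give the hashed samples no replicate numbers that match across genotypes. Depth limits all genes under 20 counts, and 2 samples per genotype limit every test.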
